A study of Mus musculus with 9 samples.

Results

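The genes of the respiratory chain were followed in mouse lung across the 3 groups of the study. They were taken by symbol: the protein-coding genes of the mitochondrial genome (mt-Nd, mt-Co, mt-Cytb and mt-Atp), and the nuclear genes whose symbols begin with Nduf, Uqcr, Cox4 to Cox8 or Atp5, or are Sdha to Sdhd. Of 106 matching symbols in a table of 21983, 100 had at least 10 counts in at least 3 of the 9 libraries. All 100 were among the 14739 genes tested, 12 of them encoded in mitochondrial DNA and 88 in the nucleus. The nuclear genes divide into 43 of complex I (6 core subunits, 29 supernumerary subunits and 8 Ndufaf assembly factors), 4 of complex II, 7 of complex III, 18 of complex IV and 16 of complex V. The rule used no difference between groups.

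Lungs came from BALB/c mice, an inbred strain. The control group was normal mice given saline by mouth from day 14, the asthma group was mice with a chronic asthma model given the same saline, and the BSYQF group was asthmatic mice dosed by mouth from day 14, for 6 weeks, with the herbal preparation Bu-Shen-Yi-Qi formula (20 g of raw herbs per kg). Each group had 3 libraries. How asthma was induced is not in the labels used here. Nor do they state that the replicates of a group are separate animals, and p-values accordingly reflect only how far these libraries scatter, which may be technical. The series title places the study around airway remodelling and the genes that the formula regulates.

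The respiratory chain sits in the inner mitochondrial membrane. Complexes I and II pass electrons from NADH and succinate to ubiquinone, complex III passes them to cytochrome c, complex IV passes them to oxygen, and complex V uses the proton gradient to make ATP. Complexes I, III, IV and V hold subunits from both genomes, with the mitochondrial ones in their catalytic or proton-moving cores, whereas complex II is wholly nuclear. Several complex IV subunits exist as pairs of isoforms, in which a widely expressed form is replaced in heart, skeletal muscle, brown fat or lung.

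Some mitochondrial genes have near-identical copies in the nucleus, so that a read from them can match both places. In a block on chromosome 1 of GRCm38 (mm10), pseudogenes annotated in GENCODE vM21 are full or partial copies of 7 mitochondrial mRNAs. They run from Gm28439 at the low end to Gm29216 at the high end. Sequence between these pseudogenes was not compared. The partial ones were Gm29216, which aligned to 31.3% of mt-Co1, and Gm28439, which aligned to 63.6% of mt-Nd4. The other copies aligned to 98.99% to 99.87% of their genes. Gm28661 (chr1:24614885-24615565) was identical to mt-Co2 over 681 of 681 aligned bases, and Gm28438 (chr1:24612775-24613119) matched mt-Nd3 at 344 of 345. Windows of 60 bases are shown for 3 of the pairs because they show how little sequence separates the loci; capitals mark the base at which the 2 loci differ, and the mt-Co2 window is the same at both. The sequences are from GENCODE transcripts on GRCm38, each in the direction of its transcript (plus strand for the mitochondrial genes, minus strand for the copies).
mt-Nd3, chrM:9459-9518: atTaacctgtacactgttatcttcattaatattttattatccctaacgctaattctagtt
Gm28438, chr1:24613060-24613119: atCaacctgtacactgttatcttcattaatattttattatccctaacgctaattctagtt
mt-Co1, chrM:6390-6449: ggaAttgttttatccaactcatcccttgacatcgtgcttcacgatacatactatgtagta
Gm29216, chr1:24616129-24616188: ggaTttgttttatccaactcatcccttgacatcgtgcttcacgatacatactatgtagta
mt-Co2, chrM:7013-7072: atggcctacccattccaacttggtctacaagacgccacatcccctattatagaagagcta
Gm28661, chr1:24615506-24615565: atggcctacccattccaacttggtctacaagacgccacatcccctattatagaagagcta

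Among the 12 mitochondrial mRNAs tested, the 5 that share nearly all of their sequence had the lowest levels. Per length, the 5 mRNAs that share 98.0% to 100% of their 50-base words with another annotated transcript (mt-Co2, mt-Co3, mt-Atp6, mt-Nd3 and mt-Nd4l) lay between 1.59 and 15.0 CPM per kb (CPM being a gene's counts scaled to library size) in the control group. The other 7, which share 0% to 62.2%, lay between 1183 and 7234 CPM per kb. In counts, the first set held 2 to 750 per library and the second 8269 to 722007. mt-Co1, which encodes the catalytic subunit of complex IV, had 7234 ± 1547 CPM per kb in controls (SD, n = 3), while mt-Co2 and mt-Co3, which encode its partners in the same core, had 15.0 ± 4.80 and 11.9 ± 3.78. mt-Atp8, which shares 0% of its 50-base words with another annotated transcript and overlaps mt-Atp6, had 0 counts in every library. It lies between mt-Co2 and mt-Atp6, whose nuclear copies are neighbours in the block described above. The stretch between those copies was not compared with mt-Atp8, so its 0% does not show that it lacks a nuclear copy. How reads that match several places were handled is not known from the labels, and its part in these levels was not tested. The level of the 5 low mRNAs is therefore uncertain, and whether this differs between the groups was not tested.

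**Figure D1:**
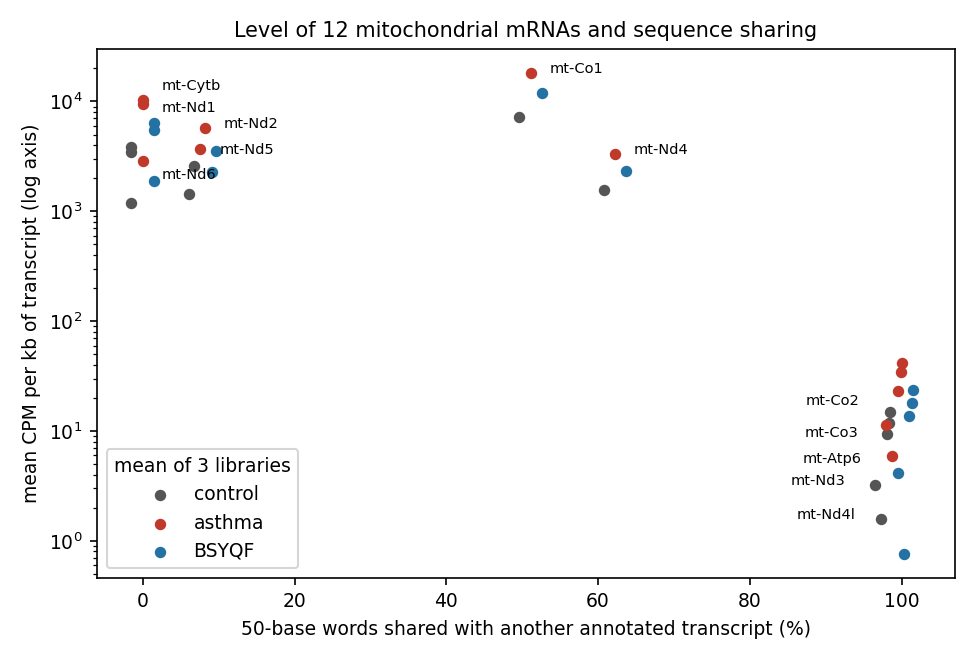
Mean level of 12 mitochondrially encoded mRNAs in each group (CPM per kb of transcript, log axis, mean of 3 libraries) against the share of their 50-base words found in another annotated transcript (percent; points of the groups are set slightly apart from left to right for legibility). The 5 mRNAs at 98.0% or more lie between 1.59 and 15.0 CPM per kb in controls, and the other 7 between 1183 and 7234.

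Total counts per library ran from 16286385 to 22819199, and 3 counts correspond to 0.134 to 0.202 CPM. The summed level of lung markers (Sftpc, Scgb1a1, Ager and Cdh5) was 40336 to 68201 CPM in every library. Other cell types moved between the groups: 5 of 7 macrophage markers were called higher in asthma than in control, 7 of 10 cardiac muscle markers and 6 of 7 adipocyte markers were called lower. Over all genes tested, 8.23% were called higher and 4.45% lower. Of 7 ciliated cell markers 3 were called higher, while their sums overlapped (658 to 831 CPM in control, 584 to 978 in asthma). Alveolar type 1 markers summed to 4909 to 5271 CPM in control and 2897 to 4745 in asthma, with 1 of 5 tested called lower. Of 6 endothelial markers 0 lay above 0, and 1 was called lower. In these bulk samples fewer cells of a type and less RNA per cell cannot be told apart.

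Mitochondrially encoded mRNAs took 2.68%, 2.19% and 3.46% of all counts in control replicates 1 to 3. The shares were 5.05%, 10.3% and 3.77% in asthma replicates 1 to 3, and 6.53%, 3.61% and 2.64% in the BSYQF replicates. All 3 asthma libraries thus lay above all 3 control libraries, with asthma replicate 3 only just above control replicate 3, and the BSYQF libraries overlapped both groups. Means were 2.78% ± 0.640 in control, 6.38% ± 3.47 in asthma and 4.26% ± 2.02 in BSYQF (SD, n = 3). As a share summed over the members, this value is given without a test. The 5 low mRNAs with nuclear copies held at most 750 counts each per library, so these shares come almost wholly from the other 7. mt-Co1 alone took on average 1.15% of counts in control, 2.64% in asthma and 1.81% in BSYQF.

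The nuclear genes took a smaller share that varied less. They held 0.660%, 0.656% and 0.721% of counts in control, 0.897%, 0.847% and 0.747% in asthma, and 0.858%, 0.813% and 0.684% in BSYQF. The asthma libraries again lay above the controls without overlap, and BSYQF replicate 3 fell inside the control range. The ratio of summed mitochondrial to summed nuclear CPM was 4.07, 3.34 and 4.80 in control, 5.63, 12.2 and 5.04 in asthma, and 7.61, 4.44 and 3.85 in BSYQF, so that mitochondrial mRNAs stood higher relative to nuclear ones in every asthma library than in every control library.

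**Figure D2:**
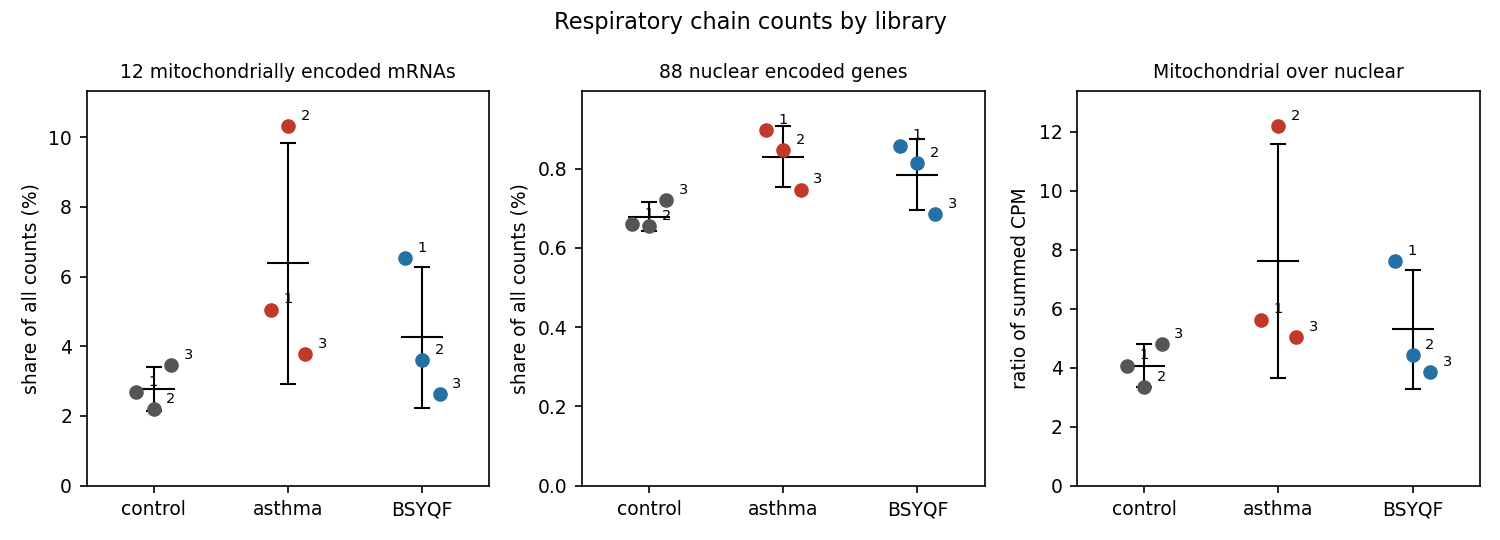
Share of all counts (percent) held by 12 mitochondrially encoded mRNAs and by 88 nuclear respiratory chain genes, and the ratio of their summed CPM, in each library; numbers are replicate numbers, bars are the mean and SD of 3 libraries. Asthma replicate 2 (10.3% mitochondrial) and BSYQF replicate 1 (6.53%) stand highest in their groups, and all asthma libraries lie above all control libraries in the 3 panels. The mitochondrial share and the ratio rest almost wholly on 7 of the 12 mRNAs.

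In asthma against control, no mitochondrially encoded mRNA passed the test, although all 12 had higher means in asthma. With edgeR's quasi-likelihood test, adjusted over 14739 genes, 0 of 12 were called at an adjusted p under 0.05, where 12.7% of all genes tested were called. Their adjusted p-values lay between 0.0533 and 0.0913, and all 12 had an unadjusted p under 0.05, as 19% of all genes did in this direction. Their log2 fold changes ran from 1.09 to 1.87 with a median of 1.38, against a median of 0.02 over all genes tested. In 10 of the 12 every asthma library lay above every control library, an arrangement found in 22% of all genes tested, while mt-Co3 and mt-Atp6 overlapped. mt-Co1, mt-Nd1, mt-Cytb and mt-Nd6 ranked the 9 libraries in the same order. The 12 are therefore not independent of each other, and their number adds little to that share. DESeq2 called 10 of the 12 higher (12.4% of all genes). Without asthma replicate 2 the median fell to 0.79 with 0 called, and without asthma replicate 3 it was 1.65 with 12 called, in a fit that called 28.5% of all genes. In the fits without BSYQF replicate 1 and BSYQF replicate 3, 6 and 4 were called, where 17.7% and 15.0% of all genes were, and 0 were called without any other single library.

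mt-Co1 had 10746, 9029.9 and 13752 CPM in control, 19691, 48519.5 and 15507 in asthma, and 29662, 14602 and 10532 in BSYQF. Asthma replicate 2 stood far above every other library, and asthma replicate 3 lay just above control replicate 3. Its log2 fold change in asthma against control was 1.32 ± 0.49 (SE, adjusted p = 0.0899).

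Genes of complexes I and III followed the same order of libraries. mt-Nd1, a membrane-arm core subunit of complex I, had 2989, 2767 and 4246 CPM in control, 7240.2, 15011 and 4982 in asthma, and 8415, 4592 and 2879 in BSYQF. mt-Cytb, the cytochrome b of complex III, had 4407, 3267 and 5451 CPM in control, 8949.5, 19680.2 and 6423 in asthma, and 11678, 5983 and 3982 in BSYQF. In each the asthma libraries lay above the controls, replicate 2 highest, and BSYQF replicate 1 was the highest of its group. The log2 fold changes of asthma against control were 1.45 ± 0.46 (adjusted p = 0.0602) for mt-Nd1 and 1.42 ± 0.48 (adjusted p = 0.0691) for mt-Cytb. mt-Nd6, the 1 mRNA read from the opposite strand to the others, had 603, 484 and 756 CPM in control, 1234, 2363 and 902 in asthma, and 1476, 852 and 582 in BSYQF, a log2 fold change of 1.29 ± 0.40 (adjusted p = 0.0544). The 5 low mRNAs with nuclear copies had log2 fold changes from 1.28 to 1.87 (median 1.51), and the 7 abundant ones from 1.09 to 1.45 (median 1.32). The difference between these sets was not tested.

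Of the nuclear genes, 10 were called higher in asthma and 2 lower. These 12 of 100 members compare with 12.7% of all genes tested called in either direction (8.23% higher and 4.45% lower), so the share called was that of the background. The distribution was shifted all the same: 73 of 88 nuclear genes had a log2 fold change above 0, with a median of 0.45, where 51.2% of all genes did. In 52 of the 88 every asthma library lay above every control library and in 6 (Ndufb2, Uqcrc2, Cox4i2, Cox7a1, Cox8b and Ndufa4l2) every one lay below, against 22% and 18.4% of all genes. The number called depended on method and library. DESeq2 called 24 nuclear genes higher and 4 lower, beside 12.4% and 10% of all genes. Scaled by library totals without TMM factors, 2 members were called higher and 2 lower, where 10.7% of all genes were called in either direction. Without asthma replicate 3 the members called higher were 50 (12 of them mitochondrial), without BSYQF replicate 1 they were 29, and without BSYQF replicate 3 they were 33. Over all genes these fits called 28.5%, 17.7% and 15.0% in either direction, against 12.7% with all libraries, so the calls rose among all genes too. There was 1 without BSYQF replicate 2 (6.33% of all genes), and there were 0 without any of the 3 controls or asthma replicate 1 or 2 (1.15% to 2.94% of all genes). The members called lower were 4 without asthma replicate 3, 3 without BSYQF replicate 1, 2 without BSYQF replicate 3, 1 without control replicate 1 or BSYQF replicate 2, and 0 otherwise.

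**Figure D3:**
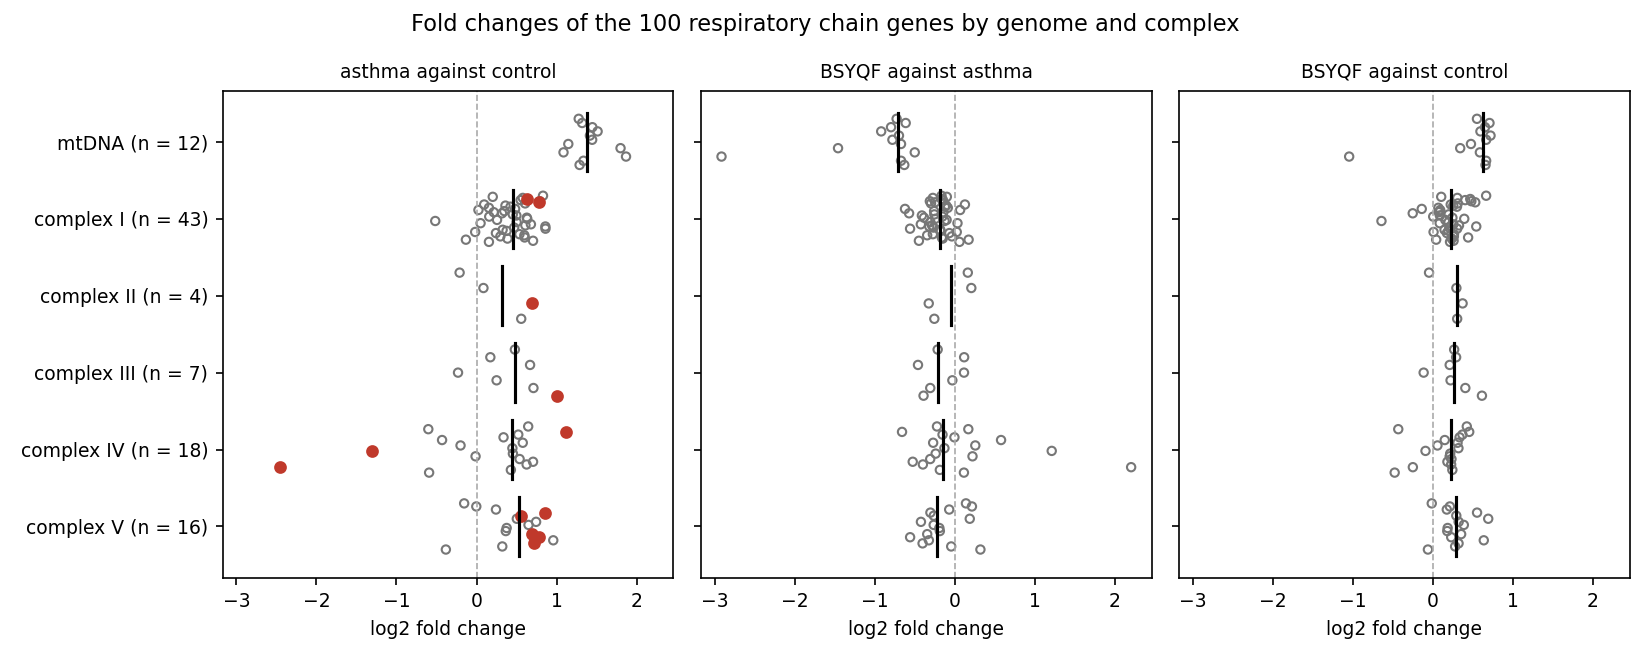
Log2 fold change of each of the 100 genes in the 3 comparisons, by genome and complex; filled red points were called at an adjusted p under 0.05, open points were not, and black bars are medians. In asthma against control the mitochondrial genes have a median of 1.38 and each nuclear complex a median between 0.32 and 0.53, with 2 called genes of complex IV far to the left; nothing is filled in the other 2 panels.

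In complex I, which takes electrons from NADH, 2 of 43 nuclear genes rose and none fell, and 40 lay above 0 (median 0.45). Over all genes tested, 8.23% were called higher and 4.45% lower, and 51.2% lay above 0. Ndufa3 and Ndufa12, both small supernumerary subunits, were those called. Ndufa3 had 56.1, 47.9 and 60.2 CPM in control, 99.9, 108 and 72.9 in asthma, and 100.1, 82.1 and 55.1 in BSYQF; asthma lay above control throughout, by 0.77 ± 0.22 on the log2 scale (adjusted p = 0.0459). Ndufa12 had 18.6, 17.95 and 19.1 CPM in control, 32.0, 29.6 and 24.6 in asthma, and 30.3, 25.6 and 21.1 in BSYQF, and was 0.63 ± 0.18 higher in asthma (adjusted p = 0.0429). Its BSYQF libraries also lay above all controls. None of the 6 core subunits or the 8 assembly factors was called, with medians of 0.31 and 0.33.

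Complex II, succinate dehydrogenase, is the complex without a mitochondrial subunit, and its 4 genes differed among themselves. Sdhc, a membrane anchor, rose: it had 110.0, 98.0 and 122 CPM in control, 181, 210.5 and 145 in asthma, and 183, 136 and 109 in BSYQF, a log2 fold change of 0.70 ± 0.20 in asthma against control (adjusted p = 0.0488). Sdhd, the other anchor, did not pass, at 0.56 ± 0.18 (adjusted p = 0.0619) without overlap of asthma and control. The catalytic subunits gave values near 0: Sdha, the flavoprotein, at -0.21 ± 0.15 (adjusted p = 0.328) and Sdhb, the iron-sulphur subunit, at 0.09 ± 0.16 (adjusted p = 0.723), and in both the groups overlapped.

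In complex III, 1 of 7 nuclear genes rose, where 8.23% of all genes tested were called higher. Uqcrq, a small subunit of the cytochrome bc1 complex, had 78.3, 84.2 and 101 CPM in control, 199.8, 199 and 129 in asthma, and 175, 137 and 91.5 in BSYQF. All asthma libraries were above all controls, and BSYQF ran from inside the control range to near the asthma values. The difference of asthma from control was 1.003 ± 0.24 on the log2 scale (adjusted p = 0.0304).

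In complex V, the ATP synthase, 5 of 16 genes rose and none fell, with 13 above 0 (median 0.53). Of all genes tested, 8.23% were called higher and 4.45% lower, and 51.2% lay above 0. Atp5e, the epsilon subunit of the rotating stalk, had 114, 120.1 and 133 CPM in control, 223, 272 and 168 in asthma, and 241, 181 and 117 in BSYQF, and was 0.86 ± 0.25 higher in asthma (adjusted p = 0.0475). Atp5k, subunit e at the membrane where the enzyme forms dimers, had 27.2, 22.0 and 29.8 CPM in control, 52.1, 46.8 and 37.6 in asthma, and 32.4, 38.2 and 22.2 in BSYQF, and was 0.79 ± 0.22 higher (adjusted p = 0.0413). In both genes the asthma libraries lay above the controls and the BSYQF libraries overlapped them. Atp5mpl, Atp5j2 and Atp5f1, a small membrane protein, subunit f and the peripheral stalk subunit b, rose by 0.72 ± 0.19, 0.70 ± 0.20 and 0.55 ± 0.14 (adjusted p = 0.0391, 0.0470 and 0.0368). Atp5g1, Atp5g2 and Atp5g3 encode the same c-ring subunit, and none was called, at 0.50, 0.74 and 0.65. Atp5g2 shares 87.4% of its 50-base words with other transcripts and had at most 44 counts, so its value is uncertain.

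Complex IV held both the largest rise and the largest falls among the called nuclear members. Of its 18 nuclear genes 1 rose, 2 fell, and 11 lay above 0, beside 8.23%, 4.45% and 51.2% of all genes tested. Cox5a, a nuclear subunit on the matrix side, had 56.2, 47.7 and 67.3 CPM in control, 132, 162 and 76.4 in asthma, and 96.0, 79.5 and 59.4 in BSYQF. Asthma was above control in every library, with replicate 3 near the control range, and the log2 fold change was 1.11 ± 0.27 (adjusted p = 0.0292). Cox5a was also called without asthma replicate 3 and without BSYQF replicate 1, 2 or 3, and was not called without any of the other 5 libraries. An antisense gene, Gm26631, covers 12.8% of the annotated exons of Cox5a, and the strand setting of the counting is not known from the labels. Cox5a also shares 32.0% of its 50-base words with other transcripts. Among the other called members, Atp5f1 shares 38.7%, Ndufa12 26.2% and the rest at most 3.75%. The part of shared sequence in these values was not tested.

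The genes that fell were isoforms of muscle and brown fat. Cox8b (chr7:140898945-140900446, minus strand), which replaces Cox8a in heart, skeletal muscle and brown fat, had 4.97, 7.19 and 7.61 CPM in control, 0.679, 0.672 and 2.15 in asthma, and 3.27, 6.21 and 7.13 in BSYQF. The asthma libraries lay below all others. The log2 fold change was -2.45 ± 0.49 in asthma against control (adjusted p = 0.0161). Cox7a1 (chr7:30184144-30186078, plus strand), the counterpart of Cox7a2 in the same tissues, had 11.1, 7.13 and 11.3 CPM in control, 3.73, 2.49 and 5.65 in asthma, and 6.60, 12.2 and 8.95 in BSYQF. It too was lowest in the 3 asthma libraries, at -1.30 ± 0.35 (adjusted p = 0.0391), and missed the threshold with limma voom. Neither was called without control replicate 2 or 3 or asthma replicate 1 or 2; without control replicate 1 or BSYQF replicate 2, Cox8b passed and Cox7a1 did not.

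The widely expressed partners took other values. Cox8a had 199, 179 and 189 CPM in control, 281, 366 and 229 in asthma, and 270.1, 224 and 172 in BSYQF (log2 fold change of asthma against control 0.63 ± 0.20, adjusted p = 0.0641), and Cox7a2 was at 0.45 ± 0.19 (adjusted p = 0.117). Per length, Cox8b stood at 18.3 ± 3.94 CPM per kb in control beside 344 ± 17.9 for Cox8a, and Cox7a1 at 25.1 ± 5.98 beside 122 ± 13.9 for Cox7a2 (SD, n = 3), so the muscle forms were the minor part of each pair in lung. Cox6a2, the muscle form of Cox6a1, had 17.1, 13.2 and 21.1 CPM in control, 11.2, 14.1 and 12.8 in asthma, and 15.5, 20.5 and 21.0 in BSYQF, and did not pass (-0.43 ± 0.22, adjusted p = 0.183).

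Cardiac muscle markers moved with these isoforms. The summed level of 10 cardiac markers was 608, 544 and 1097 CPM in control, 159.7, 169 and 315 in asthma, and 513, 668 and 1481 in BSYQF, with 7 of 10 called lower in asthma. Cardiac markers were thus lowest in the asthma libraries, as Cox8b and Cox7a1 were. The sum of 7 adipocyte markers was 594, 199 and 119.6 CPM in control, 19.7, 19.7 and 40.7 in asthma, and 125, 216 and 499 in BSYQF, with 6 of 7 lower, and 7 skeletal muscle markers summed to 18.7 to 43.1, 8.15 to 9.59 and 20.3 to 34.5 CPM, with 2 of 4 tested lower. Of the brown fat markers, Ucp1, which defines that tissue, was at 7.84 CPM in control replicate 2 and at 0 to 0.260 CPM in the other 8 libraries. Other brown fat markers did not follow Cox8b, itself on that list: Dio2 was at 1.30 to 1.75 CPM in control and 2.69 to 5.17 in asthma, Cidea at 3.72 to 7.43 and 3.85 to 11.2. The sum of the markers on that list other than Cox8b overlapped (5.37 to 17.3 and 8.26 to 16.3 CPM). The part of these cell types in the 2 isoform results was not tested.

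Cox4i2 and Ndufa4l2 are a further pair of tissue-restricted forms, expressed in lung in pericytes and smooth muscle and linked to low oxygen. Cox4i2 had 49.7, 59.4 and 65.1 CPM in control, 33.7, 34.2 and 46.7 in asthma, and 57.8, 35.7 and 35.7 in BSYQF. Ndufa4l2 had 27.0, 30.8 and 33.3 CPM in control, 18.2, 16.3 and 25.8 in asthma, and 25.4, 19.5 and 20.5 in BSYQF. For both, every asthma library was below every control library, and neither passed the test, at -0.60 ± 0.22 (adjusted p = 0.0822) and -0.59 ± 0.20 (adjusted p = 0.0718). Their common partners Cox4i1 and Ndufa4 were at 0.65 ± 0.20 (adjusted p = 0.0526) and 0.43 ± 0.16 (adjusted p = 0.0921). The summed level of 7 pericyte markers was 377 to 465 CPM in control, 206 to 318 in asthma and 301 to 358 in BSYQF, with 1 of 7 called lower in asthma. The 6 smooth muscle markers lay the other way, at 732 to 1121 CPM in control, 928 to 1314 in asthma and 725 to 1103 in BSYQF, with 5 of 6 above 0 in asthma against control (median 0.41) and none called. The part of either cell type was not tested.

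**Figure D4:**
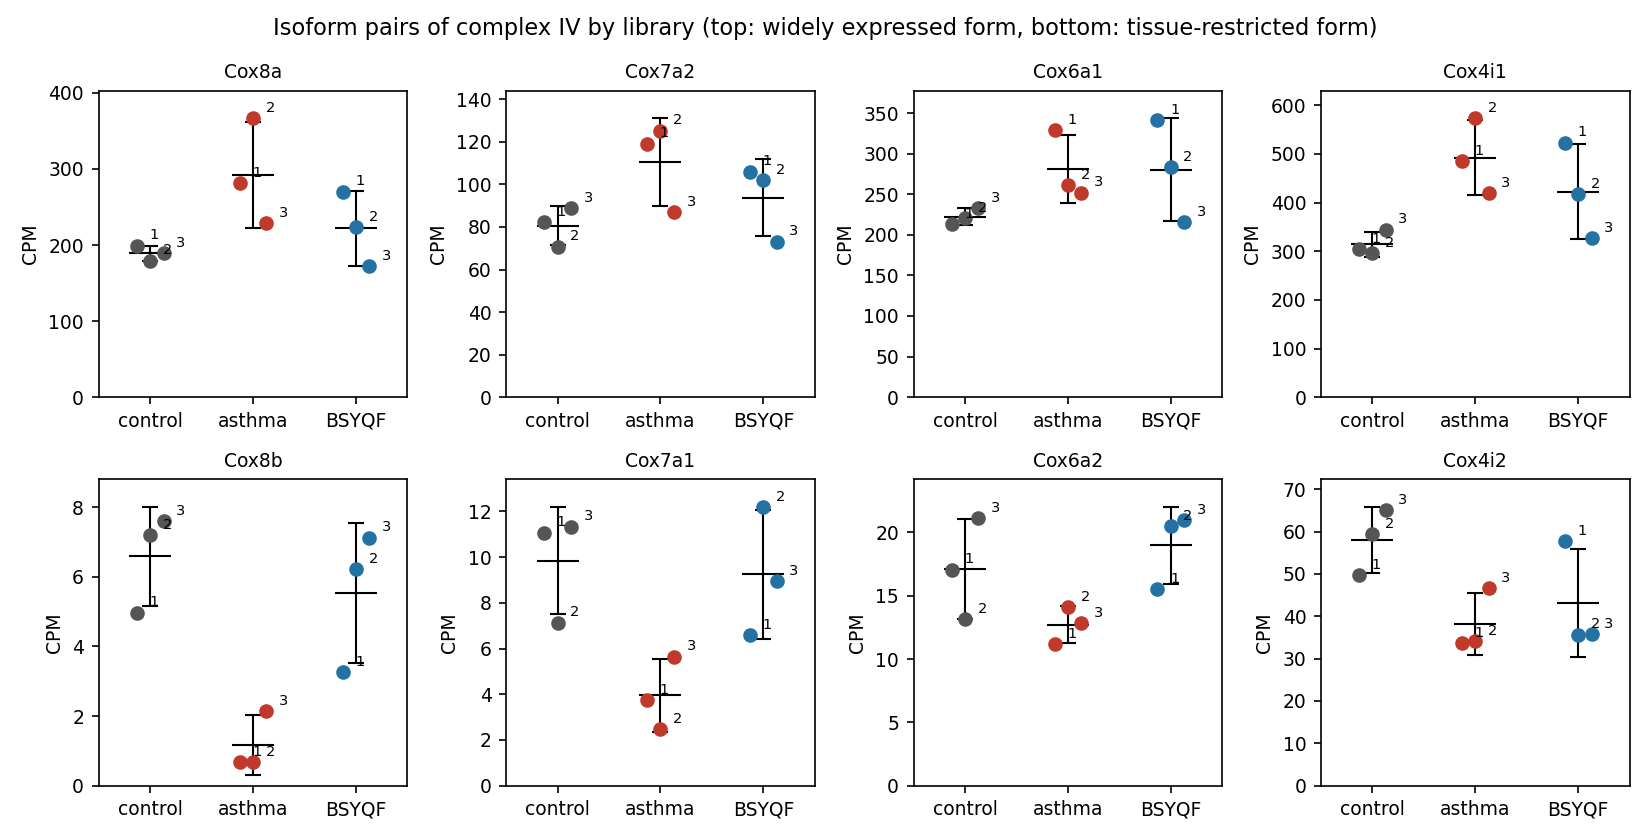
CPM of 4 isoform pairs of complex IV in each library (linear axes from 0; numbers are replicate numbers, bars the mean and SD of 3 libraries), with the widely expressed form above and the tissue-restricted form below. Cox8b and Cox7a1 are lowest in the 3 asthma libraries, whereas Cox8a and Cox4i1 have higher asthma than control values in every library.

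Promoters are shown for the nuclear members with the falls, and for Atp5k, a gene that rose and, among the 9 called members in the promoter table, the single one whose window held a searched motif. They are RefSeq windows on GRCm38.p6 around the annotated start; Atp5k and Cox8b lie on the minus strand and Cox7a1 on the plus strand. Capitals mark a match to the core motif of NRF1, a factor known for driving nuclear respiratory genes.
Atp5k promoter, chr5:108434350-108434649: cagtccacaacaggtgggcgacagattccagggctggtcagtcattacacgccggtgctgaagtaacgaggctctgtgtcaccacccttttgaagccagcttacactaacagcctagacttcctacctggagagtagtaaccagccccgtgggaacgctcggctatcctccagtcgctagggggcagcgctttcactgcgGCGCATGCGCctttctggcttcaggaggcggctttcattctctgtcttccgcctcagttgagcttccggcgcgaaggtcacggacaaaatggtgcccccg
Cox8b promoter, chr7:140900397-140900696: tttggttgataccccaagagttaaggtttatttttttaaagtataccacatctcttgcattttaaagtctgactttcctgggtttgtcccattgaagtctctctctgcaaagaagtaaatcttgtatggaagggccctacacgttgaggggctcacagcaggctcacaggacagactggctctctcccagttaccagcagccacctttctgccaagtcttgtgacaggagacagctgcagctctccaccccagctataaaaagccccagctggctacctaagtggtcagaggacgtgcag
Cox7a1 promoter, chr7:30183921-30184220: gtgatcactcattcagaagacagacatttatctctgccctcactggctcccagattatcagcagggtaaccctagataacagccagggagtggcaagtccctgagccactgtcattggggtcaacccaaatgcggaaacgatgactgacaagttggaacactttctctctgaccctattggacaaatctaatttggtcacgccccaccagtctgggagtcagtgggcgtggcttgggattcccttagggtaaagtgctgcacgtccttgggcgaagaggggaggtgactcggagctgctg

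The table held 78 promoters of 73 of the 88 nuclear members. Searching both strands for exact matches, the NRF1 motif was in 6 of the 78 (7.69%) and in 0.971% of all 32851 promoters of the same length. A YY1 motif was in 5 (6.41%, against 0.633% of all), and CCGGAAGT, an ETS and GABP motif, in 4 (5.13%, against 3.89%). Member promoters had a median GC content of 58.5%, beside 52.7% over all promoters, and its part in these shares was not tested. The Cox8b and Cox7a1 windows held none of the 3 letter strings. A match is a description of letters, not evidence of binding.

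Many nuclear members are short transcripts, and in these libraries the change of a gene varied with transcript length. Across 14584 other genes tested, Spearman's rho between length and log2 fold change of asthma against control was -0.37, and across 87 nuclear members with a length it was -0.33; genes within a library share its composition and are not independent, so no p-value is given. Among transcripts under 1000 bases, 51 members had a median log2 fold change of 0.58 and 829 other genes 0.50. From 1000 to under 2000 bases, 28 members had 0.25 and 3085 other genes 0.26. Of the short members 6 of 51 (11.8%) were called higher, and of the other short genes 18.9%. In the longer bins, which hold few members, the median of members was the higher: at 2000 to under 4000 bases 6 members had 0.26 and 6045 other genes 0.03, and at 4000 bases and more 2 members had -0.0058 and 4625 other genes -0.24. By library, the median log2 distance from the control mean was 0.52, 0.52 and 0.21 for nuclear members in asthma and 0.49, 0.29 and -0.10 in BSYQF, while other genes under 1000 bases gave 0.49, 0.61 and 0.28 and then 0.52, 0.26 and -0.04. The part of transcript length in the nuclear result was not tested. The mitochondrial members gave 1.07, 2.10 and 0.56 in asthma and 1.28, 0.42 and -0.12 in BSYQF.

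**Figure D5:**
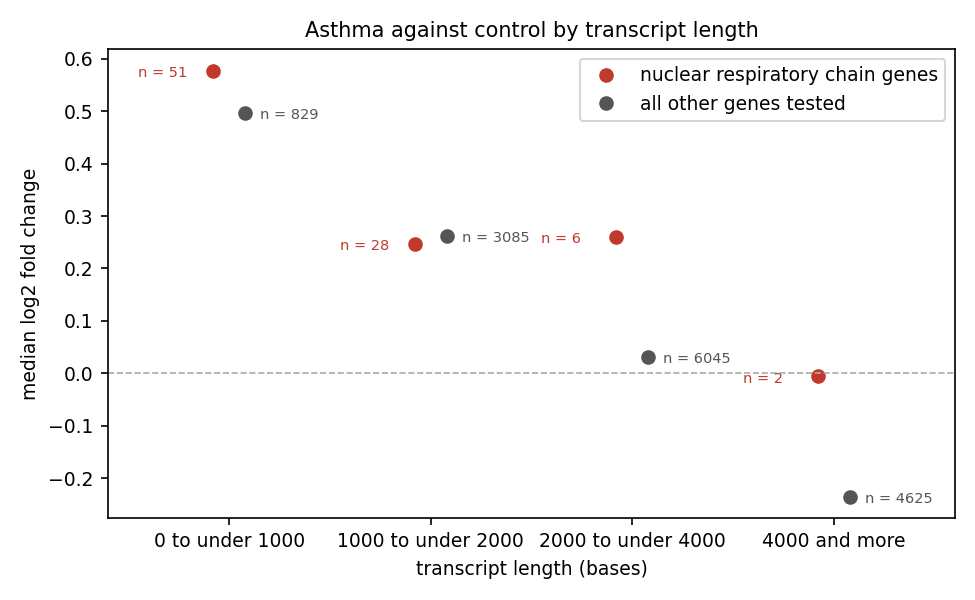
Median log2 fold change of asthma against control by transcript length (bases) for nuclear respiratory chain genes and for all other genes tested; n is the number of genes. Under 1000 bases the medians are 0.58 and 0.50, and from 1000 to under 2000 bases 0.25 and 0.26; the bins above that hold 6 and 2 respiratory chain genes.

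Other mitochondrial gene groups were counted from lists. Of 75 mitochondrial ribosomal protein genes tested, 9 rose in asthma against control and 0 fell, with 71 above 0 and a median of 0.51. Over all genes 8.23% were called higher and 51.2% lay above 0, so the number called in this list was near the background. Mrpl52, Mrpl12 and Mrpl17, proteins of the large subunit, rose by 1.14 ± 0.28, 0.99 ± 0.26 and 0.63 ± 0.17 (adjusted p = 0.0306, 0.0381 and 0.0394). Of 23 protein import genes 1 rose (Tomm40, the channel of the outer membrane, 0.86 ± 0.25, adjusted p = 0.0494), and of 4 genes of electron carriers and further complex subunits 1 rose (Atpif1, the inhibitor of ATP synthase, 0.82 ± 0.22, adjusted p = 0.0376). None was called among 34 assembly factors outside the symbol rule (median 0.22), 16 genes of mitochondrial DNA upkeep and transcription (0.16), 14 of the citrate cycle (0.09) and 11 regulators of respiratory gene transcription (-0.09). Among the regulators, 5 of 11 lay above 0. Ppargc1a, the PGC-1alpha coactivator, was at -0.87 ± 0.38 (adjusted p = 0.131), on means of 6.12 CPM in control and 3.34 in asthma. Esrra, another of these regulators, lay the other way, at 0.36 ± 0.16 (adjusted p = 0.138). Both were picked here after their values were seen. In the other 2 comparisons no gene of these lists was called. The deposited counts held no row for mt-Rnr1 or mt-Rnr2, nor for any symbol beginning with mt-T. Mitochondrial ribosomal and transfer RNAs thus could not be followed, and the shares of counts given above leave them out.

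Comparing BSYQF with asthma, the question was whether the formula moved these genes within the model. With edgeR 0 of 100 members were called, where 0.00678% of all genes tested were; 3 were higher and 7 lower at an unadjusted p under 0.05 (3.79% and 4.15% of all genes), and DESeq2 called 1 higher (0.658% of all genes) and 1 lower (0.176%). The mitochondrial members had a median log2 fold change of -0.71 and the nuclear ones -0.18, and 21 of the 100 lay above 0, where 49.3% of all genes did. In 4 members (Cox6a2, Cox7a1, Cox8b and Atp5c1) every BSYQF library lay above every asthma library, as in 4.98% of all genes, and in 6 (mt-Nd3, mt-Nd4l, Ndufab1, Ndufaf4, Ndufaf7 and Cox7c) every one lay below, as in 4.77%. These medians moved when single libraries were left out. Without asthma replicate 2 the mitochondrial median was -0.14, without BSYQF replicate 1 it was -1.20, without BSYQF replicate 3 it was -0.45, and the nuclear median was -0.33 and -0.04 without BSYQF replicates 1 and 3, -0.12 without asthma replicate 1 or 2, and -0.27 without asthma replicate 3. Without asthma replicate 3 edgeR called 1 member higher, in a fit that called 0.763% of all genes.

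Cox8b had the smallest p among members, at 2.21 ± 0.49 (edgeR adjusted p = 0.279), and every BSYQF library lay above every asthma library. Cox7a1 was at 1.21 ± 0.35 (adjusted p = 0.473) and Cox6a2 at 0.58 ± 0.22 (adjusted p = 0.587), both also without overlap, beside the cardiac marker sums given above. mt-Nd4l, a small core subunit of complex I, had 0.540, 0.292 and 0.585 CPM in control, 1.53, 2.69 and 1.08 in asthma, and 0.303, 0.116 and 0.260 in BSYQF. Its BSYQF libraries lay below all asthma libraries, at -2.91 ± 0.65 (adjusted p = 0.282), on 2 to 40 counts per library and with a nuclear copy, so its value is uncertain. Ndufaf4, an assembly factor of complex I, was at -0.57 ± 0.17 (adjusted p = 0.485) and Ndufab1, the mitochondrial acyl carrier protein, at -0.62 ± 0.21 (adjusted p = 0.579). For both, every BSYQF library was below every asthma library.

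In BSYQF against control, 0 of 100 members were called by edgeR, where 1.67% of all genes were (1.63% higher and 0.0407% lower), and 0 by DESeq2, which called 4.6% of all genes higher and 1% lower. At an unadjusted p under 0.05, 5 were higher and 1 lower (10.1% and 5.7% of all genes). The mitochondrial median was 0.62 and the nuclear median 0.24, beside a median of -0.0025 over all genes. Without BSYQF replicate 1 the medians were 0.12 and 0.11. Without BSYQF replicate 3 they were 0.90 and 0.39, with 1 member called higher, where 1.82% of all genes were called. The mitochondrial median was 0.41 without control replicate 2. In 6 of the 100 members every BSYQF library lay above every control library and in 2 every one lay below, against 13% and 11.8% of all genes. Ndufa12 had the smallest p, at 0.47 ± 0.18 (adjusted p = 0.228), and its BSYQF libraries did not overlap the controls. Ndufa4l2 was the member with the lowest p among those below 0, at -0.48 ± 0.20 (adjusted p = 0.279), again with no overlap. Since the 3 comparisons share their libraries, they are not independent of each other.

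The authors' deposited tables hold only genes past a limit on p and on fold change. In their table of asthma against control, 15 members were listed: all 12 mitochondrial members and Cox5a higher, and Cox8b and Cox7a1 lower, 14 of them with an adjusted p under 0.05. The exception in the authors' deposited table was mt-Co1 (adjusted p = 0.0795). In the authors' deposited table of BSYQF against asthma 4 were listed, Cox8b and Cox7a1 higher and mt-Nd4l and mt-Nd3 lower, of which Cox8b had an adjusted p under 0.05 (0.0240). No member was listed in the authors' deposited table of BSYQF against control. These tables rest on the same libraries and are no separate support.

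The 6 symbols under the count limit included core subunits. Atp5a1, the alpha subunit of ATP synthase, had 0 to 9 counts per library, Uqcrc1, a core protein of complex III, 0 to 1, and Ndufs3, a core subunit of complex I, 0 in every library. Their partners were well covered: Atp5b, the beta subunit, stood at 332 CPM per kb in control. Cox7b2 and Cox8c, forms known from testis, also had 0 counts. The cause of the near-empty rows of Atp5a1, Uqcrc1 and Ndufs3 was not tested, and nothing is said here about the level of these genes in lung.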

How the data were processed

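Per the labels' protocols, Trizol was used to isolate lung RNA, and each of the 9 NEBNext Ultra libraries was made from 3 µg of it. Tools named in the submitters' processing notes are DESeq2, HTSeq, STAR, cutadapt and FastQC, with mm10 as the build. Their versions, the annotation, the strand setting and the treatment of multiple matches were not stated there. What the authors deposited as counts are whole numbers per gene and library, not normalized, and every test used these. Another 3 deposited tables hold, per the file headers, the log2 fold changes and p-values of the authors, used only where named, and 36 further columns of values per library that were not used.

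Libraries were grouped by their labels into 3 groups, fitted together by edgeR 4.0.16 (R 4.3.3) after filterByExpr and TMM scaling, using robust quasi-likelihood dispersions and no block for replicate number. Calls were made at adjusted p under 0.05 (Benjamini-Hochberg, two-sided, 14739 genes). The SE is the fold change divided by the square root of F. CPM uses TMM-scaled library sizes, and log2 levels by library add a pseudocount of 0.5 CPM. The script was tested on simulated counts. Members, lists and the naming rule were chosen with earlier results of these data known. The rule named called members (with under 5 calls, the 10 with the smallest p-values), mitochondrial mRNAs, Sdh genes, isoform sets, and up to 3 called genes per list. The text picks from these, and Ndufb2, Uqcrc2, Atp5b, Atp5c1, Ndufaf7, Ppargc1a, Esrra, single markers and genes under the count limit were named after their values were seen. Lengths are of the longest principal transcript in GENCODE vM21, matched by symbol (105 of 106 to a single gene). Shared sequence was measured as exact 50-base words over its transcripts, and pairs were aligned with Biopython 1.88. The alternatives were DESeq2 1.42.0, library totals, scaling without mitochondrial genes, no count filter, edgeR's newer dispersion method, limma voom 3.58.1, only the 2 groups compared, the replicate block, and each library left out.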

Additional observations from a re-analysis of the deposited data

How the results depend on the processing

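The members called in asthma against control depended on the method. As reported, 10 were higher and 2 lower, where 12.7% of all genes were called in either direction. They were 34 and 4 with DESeq2 (22.5% of all genes), 2 and 2 with library totals (10.7%), and 3 and 1 with limma voom (8.67%). With only the 2 groups compared they were 24 and 2 (13.8%). Scaling without mitochondrial genes, no count filter and edgeR's newer dispersion method gave 9, 10 and 12 higher, each with 2 lower. Over all genes these fits called 12.8%, 10.1% and 13.2%. In BSYQF against asthma DESeq2 called 1 higher and 1 lower, beside 0.658% and 0.176% of all genes. With single libraries left out in asthma against control, members called higher ran from 0 to 50 and lower from 0 to 4. These fits called 1.15% to 28.5% of all genes. Members called higher ran from 0 to 1 in BSYQF against asthma (0% to 0.763% of all genes) and in BSYQF against control (0.0603% to 3.77%). The cause was not tested. In every setting the mitochondrial median stayed above 0 in asthma against control and below 0 in BSYQF against asthma. Depth limits mt-Nd4l and mt-Nd3, whose lowest counts were 2 and 9.

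The labels do not say whether replicate numbers pair the libraries. Correlations of deviations between same-numbered libraries ran from -0.26 to 0.34, the highest for asthma and BSYQF replicate 3. Differently numbered libraries were not set beside them, so these values cannot decide whether the numbers pair libraries. With the replicate block 2 members were called higher and 2 lower in asthma against control, where 9.97% of all genes were called. In BSYQF against asthma and BSYQF against control 0 were, where 0.102% and 1.61% of all genes were called.

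Some log2 fold changes that were not called changed sign. Cox6a1 in BSYQF against asthma was at 0.00451 with DESeq2, 0.0541 with library totals, 0.00276 with scaling without mitochondrial genes and 0.0175 with only the 2 groups compared. Sdhb in asthma against control was at -0.00581 with library totals, and Cox6b2 in BSYQF against control at -0.0303 with limma voom. With single libraries left out, log2 fold changes of asthma against control crossed 0 for Sdhb from -0.0494 to 0.18 and Cox7a2l from -0.16 to 0.12. For BSYQF against asthma they did so for Cox6a1 from -0.16 to 0.15, Ndufa4l2 from -0.00344 to 0.34, mt-Co1 from -1.14 to 0.058, Atp5g1 from -0.14 to 0.47, Cox4i2 from -0.0866 to 0.34, Cox6b2 from -0.12 to 0.50, Ndufa1 from -0.45 to 0.0897 and Ndufa13 from -0.35 to 0.0566. For BSYQF against control they did so for Cox7a1 from -0.34 to 0.0946, Cox6a2 from -0.00922 to 0.33, Cox6b2 from -0.33 to 0.30, Atp5g2 from -0.12 to 0.62, Cox8b from -0.47 to 0.0121, Sdha from -0.0947 to 0.0209 and Ppargc1a from -0.45 to 0.0993.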
